A study of Mus musculus with 12 samples.

Results

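The genes described here belong to the MHC class I presentation route and were chosen by name from the probes counted: H2-K1, H2-D1, H2-T23, Tap1, Tap2, Tapbp, Psmb8, Psmb9, Psmb10 and Psmd7, 10 of 770 genes. The tissue was primary tumour of a mouse model labelled hepatocellular carcinoma, and total RNA had been extracted from formalin-fixed, paraffin-embedded specimens. The 12 samples formed 4 groups of 3: dual immune checkpoint blockade (dICB, antibodies against PD-1 and CTLA4), dICB with Dexa at 10 mg, dICB with Dexa at 200 mg, and isotype antibody. By its title, the study is about corticosteroids given before checkpoint blockade. All Dexa-treated tumours also received dICB, and no group had Dexa alone. The labels do not spell out Dexa, give its doses with no body weight or schedule, and name no strain, tumour line, age or number of animals. The spread behind the p-values is that between these samples and may in part be technical.

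Class I molecules show peptides cut from the cell's own proteins to CD8 T cells. The proteasome cuts the proteins, the Tap1 and Tap2 transporter moves the peptides into the endoplasmic reticulum, and tapasin (Tapbp) holds the transporter beside the heavy chain while a peptide is loaded. Interferon-gamma replaces the catalytic subunits of the constitutive proteasome with Psmb8, Psmb9 and Psmb10, which gives the immunoproteasome, and it raises heavy chain and transporter genes through transcription regulators such as Irf1 and Nlrc5. Tumours are known to escape CD8 T cells by losing parts of this route.

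All 8 members with a promoter in the RefSeq table of GRCm38.p6 were searched for motifs in windows from 250 bases before to 50 after the annotated start; Tap2 and Psmd7 had none there. The windows of the classical heavy chains H2-K1 and H2-D1 are shown because the genes are near copies and 1 of them passed a test that the other did not. That of H2-T23 is shown as the non-classical heavy chain, and that of Psmb9 because it overlaps the window of Tap1. Capitals mark, on either strand, an interferon-stimulated response element core (TTTCNNTTC), the X2 core (TGACG) and the Y box (ATTGG). The windows are H2-K1 at chr17:34000298-34000597, minus strand; H2-D1 at chr17:35262844-35263143, plus strand; H2-T23 at chr17:36032652-36032951, minus strand; and Psmb9 at chr17:34187281-34187580, minus strand.
H2-K1: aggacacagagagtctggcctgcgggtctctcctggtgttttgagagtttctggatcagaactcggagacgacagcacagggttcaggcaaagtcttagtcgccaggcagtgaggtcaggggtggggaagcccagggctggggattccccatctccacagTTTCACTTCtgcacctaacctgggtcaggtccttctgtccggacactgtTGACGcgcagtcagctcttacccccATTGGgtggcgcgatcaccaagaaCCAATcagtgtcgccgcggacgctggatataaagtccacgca
H2-D1: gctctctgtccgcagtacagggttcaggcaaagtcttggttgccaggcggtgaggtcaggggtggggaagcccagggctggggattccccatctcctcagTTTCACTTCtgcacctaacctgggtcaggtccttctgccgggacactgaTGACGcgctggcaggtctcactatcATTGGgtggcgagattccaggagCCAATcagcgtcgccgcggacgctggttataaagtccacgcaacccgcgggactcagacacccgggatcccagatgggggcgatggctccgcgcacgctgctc
H2-T23: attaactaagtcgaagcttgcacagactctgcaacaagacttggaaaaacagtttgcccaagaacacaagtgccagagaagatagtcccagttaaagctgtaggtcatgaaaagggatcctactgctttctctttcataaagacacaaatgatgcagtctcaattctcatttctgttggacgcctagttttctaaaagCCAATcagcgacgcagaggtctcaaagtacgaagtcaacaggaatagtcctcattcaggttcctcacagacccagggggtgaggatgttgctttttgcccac
Psmb9: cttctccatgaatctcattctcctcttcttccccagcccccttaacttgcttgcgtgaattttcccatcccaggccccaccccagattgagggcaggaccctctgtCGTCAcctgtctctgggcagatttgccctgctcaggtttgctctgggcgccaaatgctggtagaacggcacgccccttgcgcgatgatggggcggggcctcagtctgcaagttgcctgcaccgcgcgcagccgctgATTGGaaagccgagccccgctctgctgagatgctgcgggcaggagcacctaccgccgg

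The H2-K1 and H2-D1 windows aligned over 228 columns with 206 identical bases (90.4%) and 1 gap column. Both windows held the response element core (7.52% of 32851 promoter windows), an X2 core (20.8%) and a Y box on each strand (37.4% with at least 1). None of the marked motifs overlapped another. H2-K1 had a further annotated window, at chr17:34000284-34000583, which held the same marked motifs and is not shown. The H2-T23 window held a Y box and no other marked motif, and matched H2-K1 at 58.3% of 96 aligned columns. Only the spacing TTTCNNTTC was searched for the response element. The H2-T23 window holds the letters tttctctttc, which are longer by a base and so went unmarked. Its lack of a marked core therefore does not show that it lacks such an element. Psmb9 and Tap1 shared 275 bases on opposite strands (chr17:34187306-34187580), with 1 X2 core and 1 Y box inside them. The gamma-activated site TTCNNNGAA (8.3% of windows) occurred among members once, in the Psmb8 window. The Tapbp window held 2 Y boxes, and the Psmb10 window held none of the 4 motifs. A match is a description of the letters and not a measured binding site. Psmb10 and Psmd7 lie on chromosome 8 and the other members on chromosome 17.

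The samples held 252994 to 428944 counts in all, and 635 of 770 genes had a mean of at least 20 counts and were tested. All 10 members were tested, and no member fell below 6.92 times the background limit of its sample, the mean of the negative control probes plus 2 standard deviations. Levels below are normalised counts, that is counts scaled to a mean effective library of 357620, and changes are log2 fold changes ± SE from edgeR's quasi-likelihood test with Benjamini-Hochberg adjustment over the 635 genes; a gene passed where the adjusted p was under 0.05. A label code read ICI7 in all isotype samples and ICI10 in all dICB samples. It read ICI7 in replicates 1 and 3 of the 10 mg group and in replicate 3 of the 200 mg group, and ICI10 in the rest, so dICB against isotype and the code cannot be told apart. Of 16 hepatocyte markers 10 were counted, and only Serping1, which other cells also make, lay above background in all 12 samples. C6, Masp1, Cfi and H2-Q10 lay above it in 9 to 11 samples, at no more than 111.2 normalised counts, and C8a, C8b, C9, Mbl2 and Saa1 in none, so the counts give little to check the label by. Albumin was among the 16 markers and not among the 10 counted. Replicate 2 of the 10 mg group held the highest or lowest of the 12 values at 34.8% of tested genes and at 6 of the 10 members, and replicate 1 of dICB stood apart in neutrophil markers (a sum of 18110 normalised counts, against at most 627 elsewhere). Results that rest on these 2 libraries are given with and without them, except the correlations of other genes with the members. Replicate 3 of the 200 mg group was next to replicate 2 of the 10 mg group in its share of extreme values. It held the highest or lowest value at 28.7% of tested genes and at 4 members, among them the highest H2-K1 and the lowest Psmd7. In bulk tissue, fewer cells of a type and less RNA per cell cannot be told apart.

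H2-K1, a classical heavy chain, was higher in tumours given dICB with Dexa 200 mg than in isotype tumours, and Psmd7, a non-catalytic subunit of the proteasome's regulatory particle, was lower. These were the 2 of 10 members that passed, in a comparison where 13.2% of the 635 tested genes did. Psmd7 did not pass when libraries were scaled by housekeeping genes or by positive control probes. H2-T23, which encodes the non-classical molecule Qa-1, lay higher in all 9 dICB-treated tumours than in any isotype tumour without passing. These groups did not overlap at 4.72% of tested genes. The immunoproteasome subunits Psmb8, Psmb9 and Psmb10 did not pass in any comparison, and neither did H2-D1, Tap1, Tap2 or Tapbp.

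**Figure D1:**
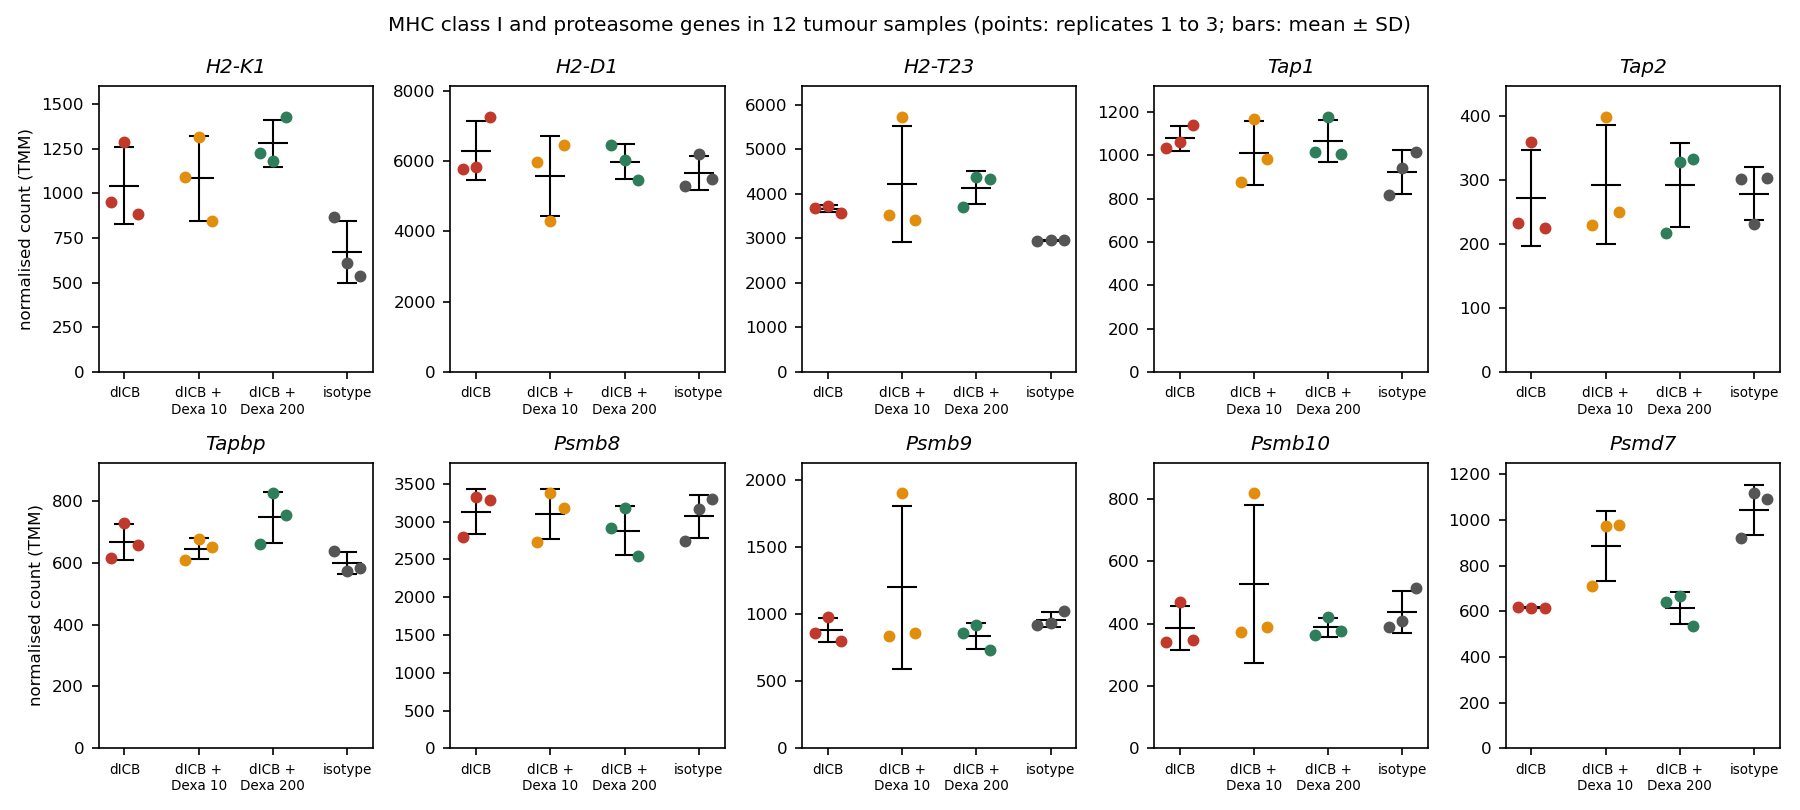
Normalised counts of the 10 members (y axes, counts) in each of the 12 samples, by group, with a point per sample and lines for mean and SD. H2-K1 sits between 1182 and 1430 in the 200 mg group, above all 3 isotype samples, Psmd7 sits between 535.8 and 669.2 there against 920.6 to 1118 in isotype samples, and replicate 2 of the 10 mg group is the highest point for H2-T23, Psmb9 and Psmb10.

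H2-K1 stood at 952, 1289 and 886.1 normalised counts in dICB tumours, 1092, 1316 and 843.9 with Dexa 10 mg, 1227, 1182 and 1430 with Dexa 200 mg, and 869.9, 612.5 and 537 in isotype tumours. The dICB and 200 mg groups lay wholly above the isotype samples, while 1 of the 10 mg samples fell below the highest isotype sample. In the 200 mg group H2-K1 averaged 1280 ± 132 against 673 ± 175 in isotype tumours (SD, n = 3 each), a rise of 0.93 ± 0.23 on the log2 scale, or 1.9-fold (adjusted p = 0.0225). Over all 9 dICB-treated tumours it rose by 0.75 ± 0.20 (adjusted p = 0.0416), a call that held in 10 of 21 alternatives. It was lost with the code as covariate (0.68, adjusted p = 0.216), the replicate block (adjusted p = 0.0561), positive control factors (adjusted p = 0.0567) and no filter (adjusted p = 0.0542), and without any 1 of 7 samples. These were isotype replicates 2 and 3 (adjusted p of 0.226 and 0.274), dICB replicate 2 (0.0643), 10 mg replicate 1 (0.0764) and 200 mg replicates 1, 2 and 3 (0.0596, 0.0739 and 0.0767). The difference was 0.63 ± 0.23 for dICB alone against isotype (adjusted p = 0.158) and 0.69 ± 0.23 for the 10 mg group (adjusted p = 0.486), and neither passed. Between Dexa 200 mg and dICB alone it was 0.30 ± 0.23 (adjusted p = 0.679).

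The H2-K1 call in the 200 mg group rested on few samples. It was lost without isotype replicate 2 (0.86, adjusted p = 0.108), isotype replicate 3 (0.77, adjusted p = 0.144) and each 200 mg replicate in turn (0.84 to 0.96, adjusted p of 0.0511 without replicate 1, 0.066 without replicate 2 and 0.0894 without replicate 3). With the sample code as a covariate it was 0.87 (adjusted p = 0.0767), and within the ICI7 samples it was 1.06, where the 200 mg group has 1 sample that is assumed to vary like the other groups. The direction was the same in 23 of 23 alternatives, of which 17 kept the call, the fit within ICI7 among them.

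H2-D1, the other classical heavy chain counted, did not pass in any comparison. Its normalised counts were 5775, 5837 and 7262 in dICB tumours, 5972, 4302 and 6463 with Dexa 10 mg, 6459, 6037 and 5450 with Dexa 200 mg, and 5292, 6195 and 5488 in isotype tumours. The 4 groups overlapped. The log2 difference against isotype was 0.15 ± 0.19 for dICB, -0.020 ± 0.19 with Dexa 10 mg and 0.080 ± 0.19 with Dexa 200 mg. Such differences say only that no change was detected at this spread. A ratio of 2 counts within a library does not depend on how libraries are scaled. The ratio of H2-K1 to H2-D1 was 0.19, 0.196 and 0.262 in the 200 mg group, against 0.164, 0.0989 and 0.0978 in isotype samples. These groups did not overlap, whereas the ratio in dICB tumours, 0.165, 0.221 and 0.122, overlapped that in isotype tumours. So did the ratio with Dexa 10 mg, 0.183, 0.306 and 0.131, which held the highest value of all samples. The ratio was chosen after the values were seen and was given no test. Probes for H2 genes may also pick up near-identical copies, and the haplotype of the mice is not in the labels, so single H2 genes are uncertain.

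H2-T23 had 3685, 3730 and 3576 normalised counts in dICB tumours, 3530, 5739 and 3424 with Dexa 10 mg, 3706, 4378 and 4342 with Dexa 200 mg, and 2944, 2973 and 2958 in isotype tumours. All 9 dICB-treated samples lay above all 3 isotype samples, which lay close together (2959 ± 14.8, SD, n = 3). The difference over all dICB-treated tumours was 0.44 ± 0.17 on the log2 scale (adjusted p = 0.141). It was 0.49 ± 0.20 in the 200 mg group (adjusted p = 0.123) and 0.31 ± 0.20 in the dICB group (adjusted p = 0.418). The 200 mg difference passed in 4 of 23 alternatives, among them the fit without replicate 2 of the 10 mg group and replicate 1 of dICB (0.49, adjusted p = 0.0299). With the sample code as a covariate the dICB difference was -0.0016 (adjusted p = 0.998). That term can be estimated from the Dexa groups alone, where the 1 ICI10 sample of the 10 mg group was replicate 2, at 5739 normalised counts. In the 200 mg group the ICI10 samples, at 3706 and 4378, lay on both sides of the ICI7 sample at 4342. In the 10 mg group against isotype the difference was 0.52 ± 0.20 (adjusted p = 0.499), and 0.21 without replicate 2 (adjusted p = 0.809); over all dICB-treated tumours it was 0.32 without that library (adjusted p = 0.0827).

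Of the peptide-loading genes none passed in any comparison. Tap1, the first transporter subunit, had 1032, 1062 and 1142 normalised counts in dICB tumours, 875.7, 1170 and 984.1 with Dexa 10 mg, 1014, 1179 and 1005 with Dexa 200 mg, and 815.5, 939.8 and 1016 in isotype tumours. The dICB samples lay just above the isotype samples, by 0.22 ± 0.16 on the log2 scale (adjusted p = 0.472). Tap2, its partner, ranged from 217.3 to 399.4 in dICB-treated tumours and from 230.7 to 303.8 in isotype tumours, with overlap in every group. Tapbp had 662.1, 825.6 and 755 with Dexa 200 mg against 639.1, 574.8 and 584 in isotype tumours. Those groups did not overlap, and the log2 difference of 0.32 ± 0.15 did not pass (adjusted p = 0.166).

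The immunoproteasome subunits overlapped between groups, and 1 library stood out. Psmb8 had 2789, 3321 and 3287 normalised counts in dICB tumours, 2734, 3376 and 3181 with Dexa 10 mg, 2918, 3179 and 2545 with Dexa 200 mg, and 2748, 3166 and 3293 in isotype tumours. Its log2 differences against isotype lay between -0.092 and 0.029. Psmb9 had 861.1, 979 and 801.2 in dICB tumours, 833.6, 1901 and 860.4 with Dexa 10 mg, 860.6, 920 and 734.3 with Dexa 200 mg, and 917.8, 936.6 and 1020 in isotype tumours. Apart from replicate 2 of the 10 mg group, all samples of Psmb9 lay between 734.3 and 1020. Psmb10 had 342.3, 468.3 and 348.5 in dICB tumours, 373.2, 818.4 and 389.3 with Dexa 10 mg, 364.7, 422.7 and 377.5 with Dexa 200 mg, and 390.4, 409 and 514.5 in isotype tumours, and the same library was highest.

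That library set the size of the 10 mg values. Psmb9 differed by 0.44 ± 0.27 on the log2 scale between Dexa 10 mg and dICB (adjusted p = 0.647), and by -0.053 without the library. Psmb10 differed by 0.45 ± 0.28 (adjusted p = 0.672), and by -0.018 without it. In that library the ratio of Psmb9 to Psmb8 was 0.563, against 0.244 to 0.334 in the other 11, while the ratio of Psmb9 to Psmb10 was 2.32, within the 1.95 to 2.52 of the others. Psmb7, the constitutive catalytic subunit that Psmb10 replaces, stood at 215.1 there and between 447.5 and 1158 elsewhere. The ratio of Psmb7 to Psmb10 was 0.263 in that library and 1.19 to 2.83 in the rest. Nlrc5, the transactivator of class I genes, was also highest there, at 990.6, as was Ifng, which was close to background. Jak2, a kinase of the interferon-gamma receptor, was lowest at 309.1. Irf1, Jak1, the receptor Ifngr1 and the heavy chain H2-D1 (4302) were lowest in that library too.

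**Figure D2:**
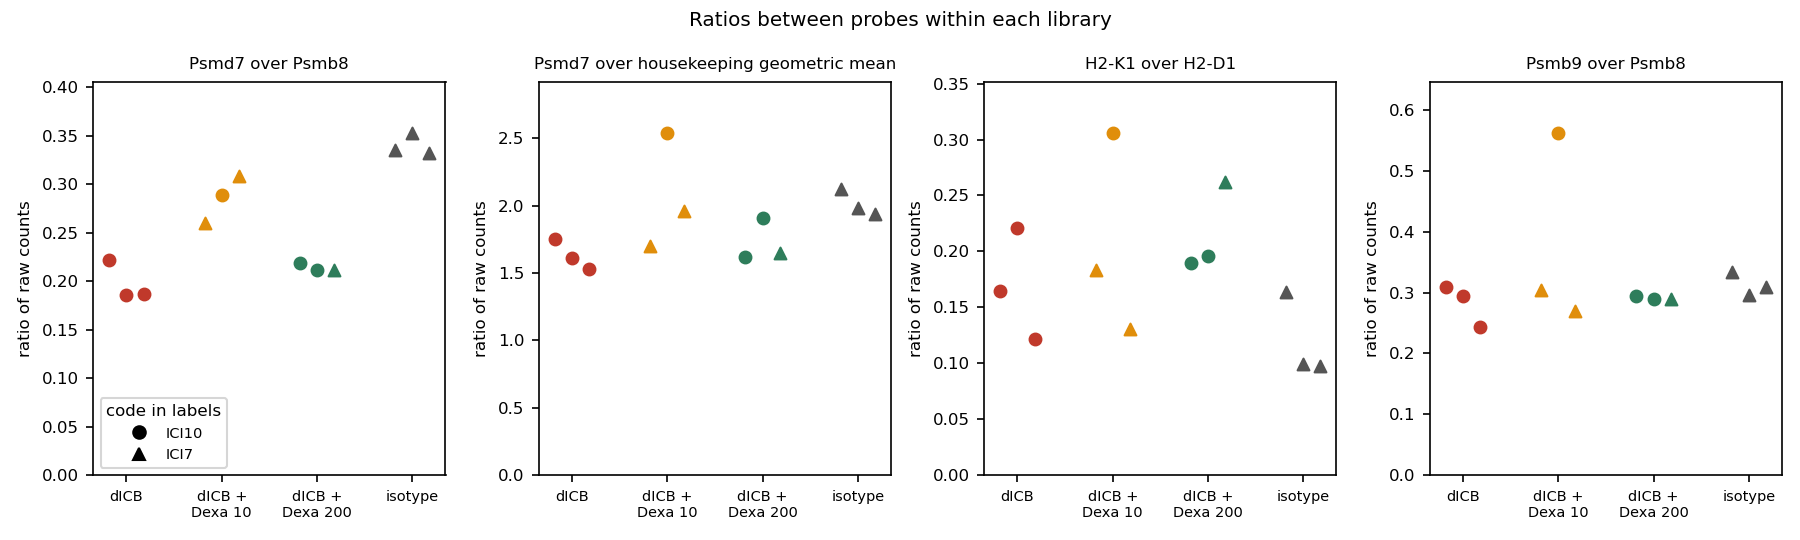
Ratios of raw counts within each library (y axes, no unit) by group, with a point per sample. Psmd7 over Psmb8 runs from 0.332 to 0.353 in isotype samples and from 0.186 to 0.308 in the others, and Psmb9 over Psmb8 is 0.563 in replicate 2 of the 10 mg group. Triangles mark samples coded ICI7 and circles those coded ICI10.

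Psmd7 was the member with the lowest log2 values against isotype. It had 618.6, 616.6 and 613.6 normalised counts in dICB tumours, 710.7, 974.8 and 978.8 with Dexa 10 mg, 639.9, 669.2 and 535.8 with Dexa 200 mg, and 920.6, 1118 and 1094 in isotype tumours. The dICB and 200 mg samples lay below every isotype sample, and the 10 mg samples lay between, overlapping the isotype range. Psmd7 averaged 615 ± 70.1 in the 200 mg group against 1044 ± 108 in isotype tumours (SD, n = 3 each) and fell by 0.76 ± 0.17 on the log2 scale (adjusted p = 0.0171). Over all 9 dICB-treated tumours it fell by 0.59 ± 0.14 (adjusted p = 0.0332), a call that held in 13 of 21 alternatives. It was lost with the code as covariate (-0.75, adjusted p = 0.119), housekeeping factors (-0.16, adjusted p = 0.393) and positive control factors (-0.33, adjusted p = 0.307), and without any 1 of 5 samples. These were isotype replicates 2 and 3 (adjusted p of 0.194 and 0.208), 10 mg replicate 1 (0.0542) and 200 mg replicates 2 and 3 (0.0648 and 0.0602). In dICB against isotype the difference was -0.76 ± 0.17 and did not pass by edgeR (adjusted p = 0.0992), whereas DESeq2 gave -0.74 and called it (adjusted p = 0.0216).

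Where the 10 mg group was set against dICB or the 200 mg group, Psmd7 had the smallest p of the members and did not pass. Dexa 10 mg against dICB gave 0.53 ± 0.17 (adjusted p = 0.409), Dexa 200 mg against 10 mg gave -0.53 ± 0.17 (adjusted p = 0.299), and Dexa 200 mg against dICB gave -0.0031 ± 0.17 (adjusted p = 0.995). Within ICI10 samples, with 1 sample of the 10 mg group, the first 2 were 0.66 and -0.57. The ratio of Psmd7 to Psmb8 within a library was 0.222, 0.186 and 0.187 in dICB tumours, 0.26, 0.289 and 0.308 with Dexa 10 mg, 0.219, 0.211 and 0.211 with Dexa 200 mg, and 0.335, 0.353 and 0.332 in isotype tumours. The isotype samples were highest, the 10 mg samples next, and the dICB and 200 mg samples lowest and overlapping. This ratio too was chosen after the values were seen.

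The fall of Psmd7 depended on how libraries were scaled. The 20 housekeeping genes counted had a median log2 difference of -0.56 in the 200 mg group against isotype, 19 of 20 of them below 0, while the median of all tested genes was 0.026. Of them 6 fell and 1 rose past the threshold, among them Sf3a3, a splicing factor, at -0.82 ± 0.19 (adjusted p = 0.0171). With factors from these housekeeping genes Psmd7 was -0.22 (adjusted p = 0.332), and with factors from the positive control probes -0.42 (adjusted p = 0.271). Those scalings moved the median of all genes to 0.55 and 0.34, and with housekeeping factors H2-K1 (1.43), H2-T23 (1.03), Tapbp (0.85), Tap1 (0.76) and H2-D1 (0.61) all passed as higher. The call was also lost without isotype replicate 2 (-0.71, adjusted p = 0.0812), isotype replicate 3 (-0.75, adjusted p = 0.0771), and 200 mg replicate 2 (-0.85, adjusted p = 0.0638) or 3 (-0.67, adjusted p = 0.0818). Within ICI7 samples it was -0.99, where the 1 sample of the 200 mg group had the lowest normalised Psmd7 count of all 12 and is assumed to vary like the other groups. The ratio of Psmd7 to the geometric mean of the housekeeping genes was 1.62, 1.91 and 1.65 in the 200 mg group, against 2.12, 1.98 and 1.94 in isotype tumours, with no overlap. Its ratio to Psmb7 did overlap, at 0.881, 1.25 and 1.2 in the 200 mg group against 1.22, 0.966 and 0.948 in isotype tumours. Set over Psma2, another proteasome core subunit, it was 0.439, 0.492 and 0.517 against 0.631, 0.561 and 0.559, with no overlap. The fall thus depended on the gene it was set against.

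**Figure D3:**
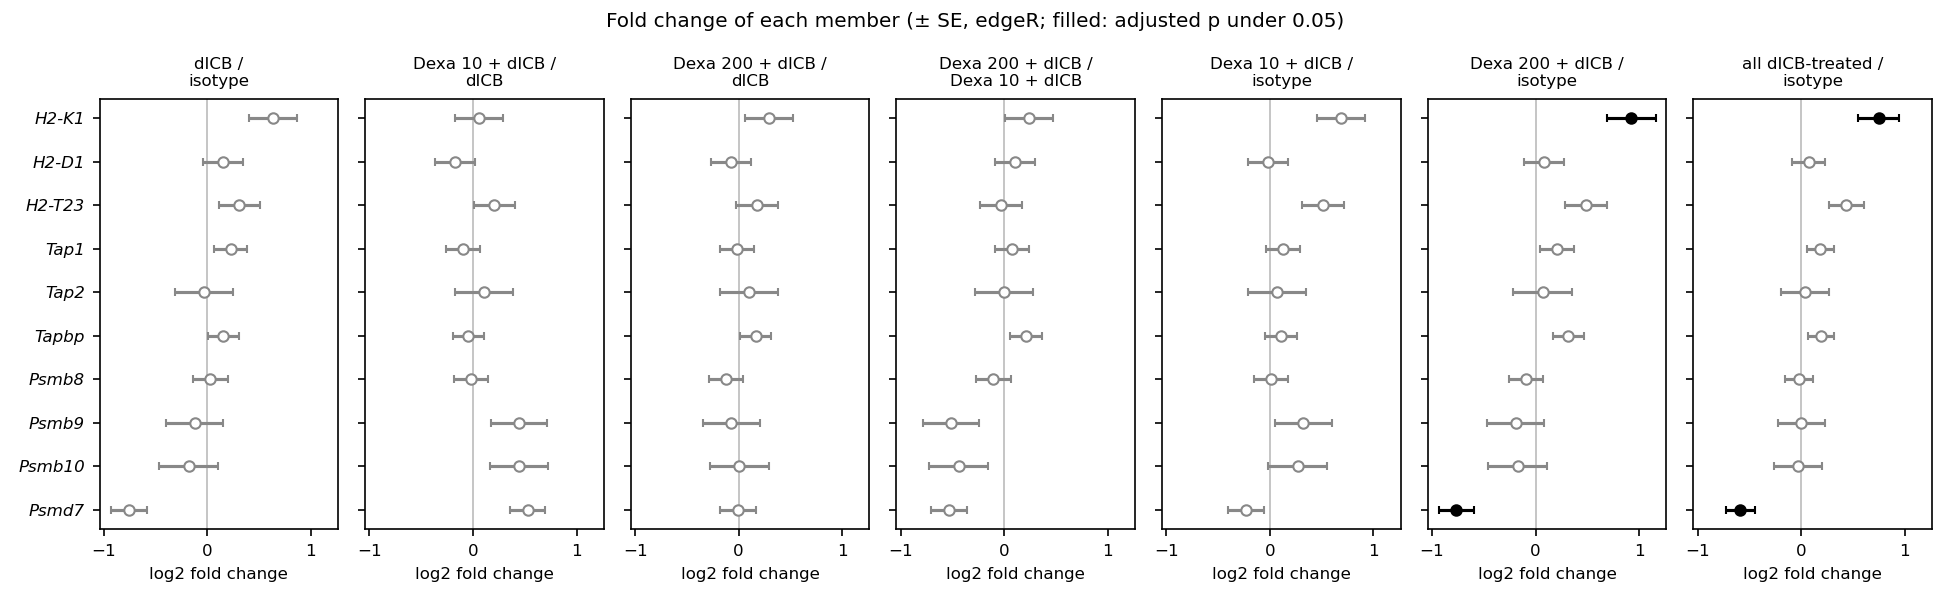
Log2 fold changes (x axes) of the 10 members in the comparisons of the design, as points with bars of 1 SE; filled points passed the threshold. H2-K1 at 0.93 and Psmd7 at -0.76 lie farthest from 0 in Dexa 200 mg with dICB against isotype, and the immunoproteasome subunits lie near 0.

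The members' counts were set against all tested genes in each comparison. In Dexa 200 mg with dICB against isotype, 2 of 10 members passed (H2-K1 higher, Psmd7 lower), against 13.2% of the 635 genes. There 3 members had an unadjusted p under 0.05 (32.3% of genes), and 4 had groups that did not overlap (44.6% of genes): H2-K1, H2-T23 and Tapbp higher and Psmd7 lower. Over all dICB-treated tumours against isotype, 2 of 10 passed (7.56% of genes), 3 had an unadjusted p under 0.05 (24.9%), and H2-T23 alone had no overlap (4.72%). These 2 comparisons share the isotype and 200 mg samples. The median log2 difference of the 10 members was 0.074 in the 200 mg group and 0.053 over all dICB-treated tumours, against 0.026 and 0.0083 for all genes.

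In dICB against isotype no member passed by edgeR (0% of genes), and by DESeq2 only Psmd7 did. Of the 10, 2 had an unadjusted p under 0.05 (20% of genes), H2-K1 and Psmd7. Groups did not overlap for 4 members (22.7% of genes), H2-K1, H2-T23 and Tap1 higher and Psmd7 lower. In Dexa 10 mg with dICB against isotype no member passed by edgeR (0% of genes) or DESeq2, 2 had an unadjusted p under 0.05 (8.35%), H2-K1 and H2-T23, and 1, H2-T23, had no overlap (13.1%). Without replicate 2 of the 10 mg group the unadjusted p of H2-T23 was 0.159.

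Adding Dexa to dICB left no member past the threshold by edgeR or DESeq2. With Dexa 10 mg against dICB, no member passed (0% of genes), and Psmd7 was the 1 with an unadjusted p under 0.05 (9.45%) and with no overlap (7.87%). With Dexa 200 mg against dICB, no member passed (0% of genes), had an unadjusted p under 0.05 (8.5%) or had groups without overlap (8.82%), and the members' log2 differences lay between -0.12 and 0.30. With Dexa 200 mg against 10 mg, no member passed (0% of genes), and Psmd7 was the 1 with an unadjusted p under 0.05 (12%) and with no overlap (21.7%). These p-values do not show that the doses act alike.

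Other genes of the class I route were counted in part. Of 25 listed, 8 were on the panel and 7 were tested. H2-Q1, a non-classical heavy chain gene, had 43.46, 38.04 and 49.34 normalised counts with Dexa 200 mg against 83.52, 93.35 and 87.44 in isotype tumours, and fell by 1.01 ± 0.28 (adjusted p = 0.0353). It lay at 1.49 to 3.41 times the background limit in those samples, so the fold change is understated. Psma2, a structural subunit of the proteasome core, had 1456, 1360 and 1036 in the 200 mg group against 1458, 1993 and 1958 in isotype tumours (-0.49 ± 0.21, adjusted p = 0.133). Psmb7 had 726, 536.8 and 447.5 there against 754.5, 1158 and 1155 (-0.84 ± 0.42, adjusted p = 0.185). H2-M3, which presents formylated peptides, differed by 0.30 ± 0.22, and Mr1, Cd1d1 and H2-Q10 by 0.027, 0.19 and 0.078, none of them past the threshold. H2-Q2 lay below the background limit in all samples and was not tested. The median of the 7 was 0.027 on the log2 scale.

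**Figure D4:**
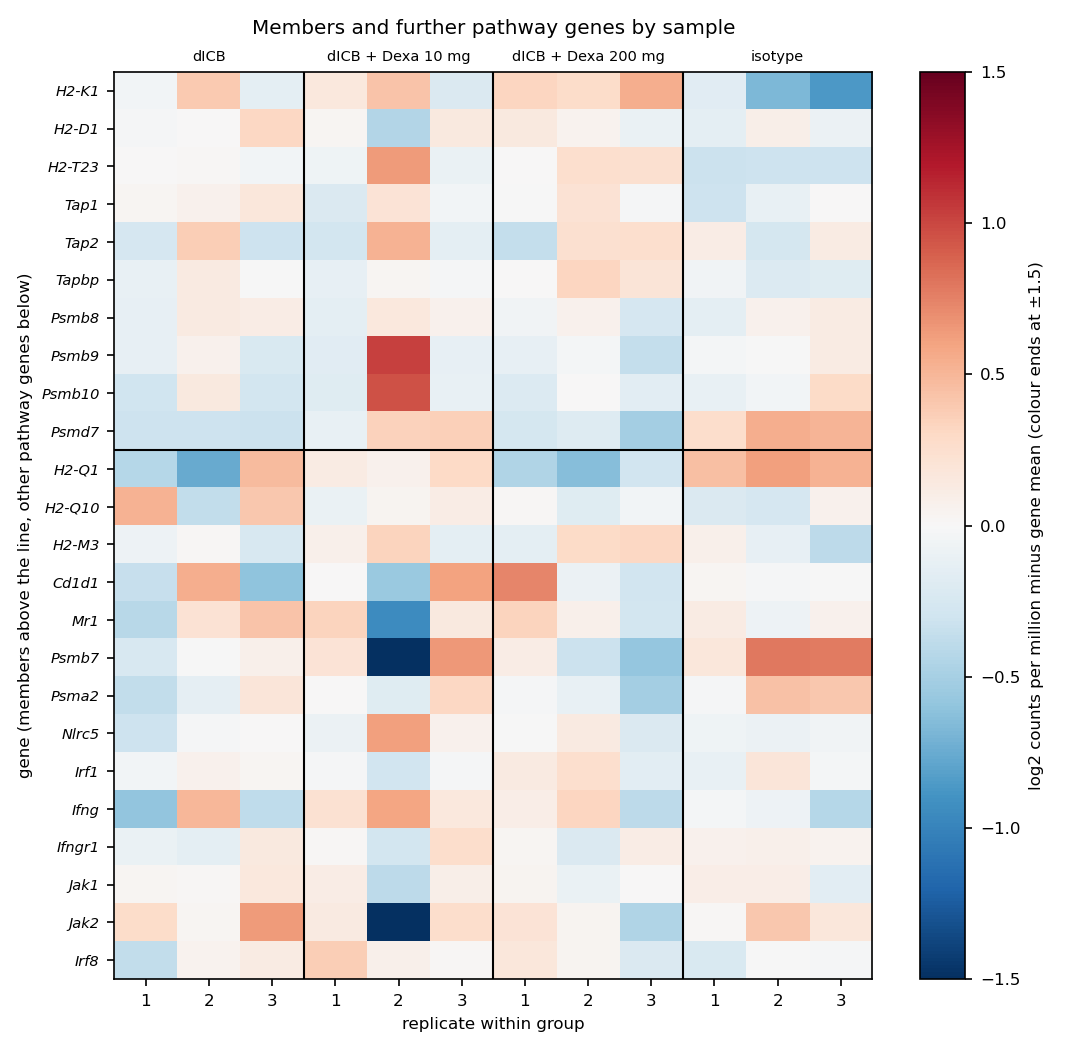
Heat map of the members and further class I route genes (rows) by sample (columns, grouped), with colour for the log2 difference from the gene's mean over the 12 samples. Psmb7 and Jak2 are darkest on the low side in replicate 2 of the 10 mg group, where Psmb9 and Psmb10 are on the high side.

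In the 200 mg group against isotype, 1 of 19 tested regulators of class I transcription passed, against 13.2% of all 635 genes. It was Crebbp, a histone acetyltransferase coactivator, at -0.79 ± 0.19 (adjusted p = 0.0201), and was named after its values were seen. In the 200 mg group Nlrc5 differed by 0.047, Irf1 by 0.071, Irf8 by 0.089, Jak1 by -0.031, Jak2 by -0.25 and the receptor Ifngr1 by -0.084, all on the log2 scale and none past the threshold. Ifng itself, the cytokine, was close to background, at 17.83 to 42.83 normalised counts in all 12 samples.

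Of 24 interferon-induced genes tested outside the class I route, 4 rose and none fell in the 200 mg group, where 13.2% of all genes passed. Among them were Gbp5, a guanylate-binding protein (0.77 ± 0.17, adjusted p = 0.0171), and Ifit2, an antiviral effector (0.92 ± 0.21, adjusted p = 0.0171). The median of the 24 was 0.22. The shares that passed in this list and the next, class II, were near that of all genes. Of 9 class II genes, 1 rose, the protease Ctss at 1.47 ± 0.41 (adjusted p = 0.0343), with a list median of 0.47. Of 9 tested receptors that read class I molecules, 2 fell, where 13.2% of all genes passed. They were the Ly49 genes Klra4 (-0.80 ± 0.19, adjusted p = 0.0184) and Klra17 (-1.40 ± 0.35, adjusted p = 0.0225), both near background. In the same group the 5 macrophage markers counted summed to 1830 to 2112 normalised counts, against 943 to 1444 in isotype samples, and the 4 leukocyte markers to 1453 to 1800 against 810.5 to 1315. The 3 epithelial markers summed to 362.1 to 386.7 in the 200 mg group, against 601.6 to 755.2 in isotype samples, and 2 of the 3 passed as lower. The 3 dendritic cell markers summed to 180.1 to 276.2 in the 200 mg group against 133.2 to 149.1 in isotype samples, and the 4 NK cell markers to 218.1 to 273.1 against 185.6 to 191.4, with 1 or 2 markers of either list above background in a sample. The 4 B cell markers were at background in both groups, and the sums of the other lists overlapped. Macrophage, leukocyte, dendritic and NK sums were thus higher in the 200 mg group than in isotype samples, and the epithelial sum was lower. In dICB tumours H2-K1 was also higher and Psmd7 lower without overlap, and each of these sums overlapped that of isotype samples, in 2 cases narrowly. The macrophage sum in dICB tumours ran from 1439 to 2742, and only replicate 3, the lowest, fell below the highest isotype sum of 1444. The epithelial sum ran from 336.4 to 619.5, and only replicate 3, the highest, exceeded the lowest isotype sum of 601.6. The NK sum ran from 148 to 246. The part of these cells in the H2-K1 and Psmd7 differences was not tested.

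Across the 12 samples the members did not all move together. Psmb9 and Psmb10 had the highest correlation of any pair of members (Pearson r = 0.952, and 0.783 without replicate 2 of the 10 mg group), and H2-D1 and Psmb10 the lowest (-0.779, and -0.407 without it). Tapbp ran with H2-K1 (0.738, and 0.755 without it), and H2-K1 ran with H2-T23 (0.77, and 0.84 without it). H2-K1 and Psmd7 ran opposite to each other (-0.705, and -0.87 without it). H2-T23 and Psmb9 gave 0.54 with that library and -0.54 without it. Among the genes most like the mean of the 9 members other than Psmd7 were Xaf1 (0.923), Txnip (0.900), Ccl24 (0.864) and Tyk2 (0.835), with Spearman's rho of 0.888, 0.846, 0.755 and 0.65. Those most like Psmd7 were Nubp1 (r = 0.969), Sf3a3 (0.926), Smn1 (0.912), Anp32b (0.912) and Erbb2 (0.911), with rho between 0.748 and 0.909; Nubp1 and Sf3a3 are among the 20 housekeeping genes. The mean of the 9 members was 0.39 in replicate 2 of the 10 mg group and -0.163 to 0.154 in the rest (log2, centred by gene). The r values against that mean therefore lean on that library, and they were not computed without it. All values share the libraries and their scaling, the samples include group differences, and the correlations are descriptions with no p.

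**Figure D5:**
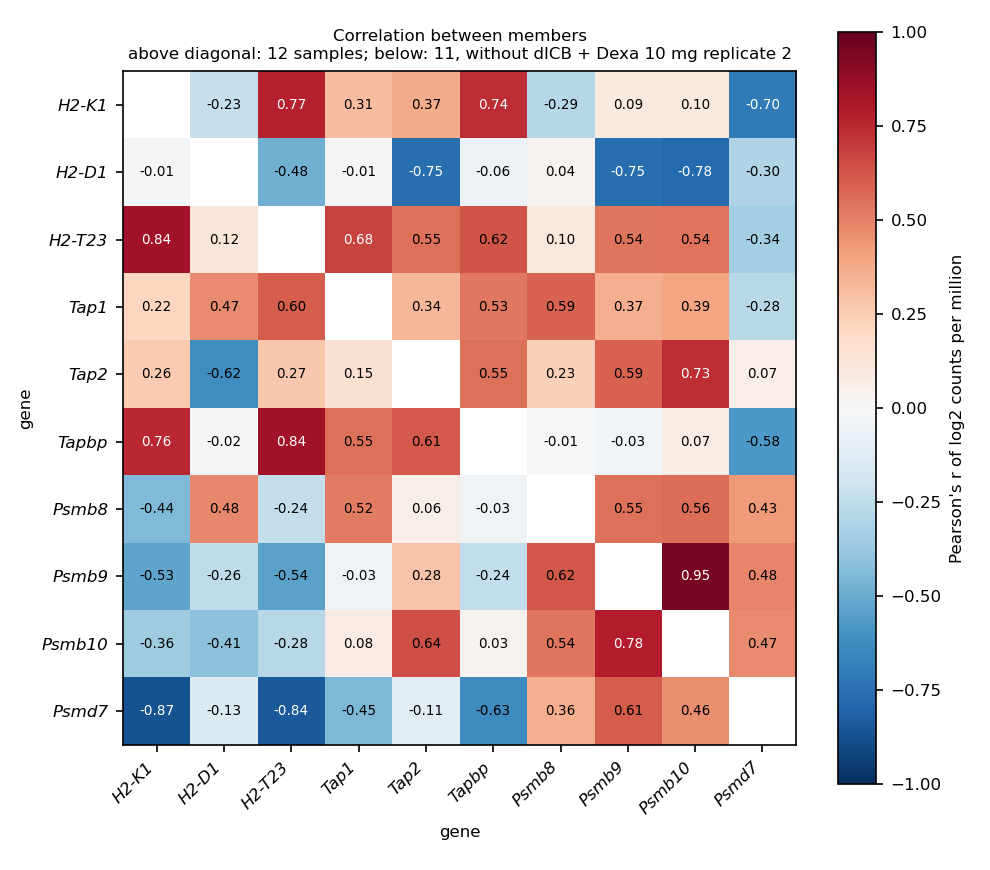
Pearson correlations of log2 counts between members over 12 samples, and over 11 without replicate 2 of the 10 mg group, with colour for r from -1 to 1. Psmb9 with Psmb10 stays high in both, and H2-T23 with Psmb9 changes from 0.54 to -0.54.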

How the data were processed

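The authors deposited raw whole-number counts for 770 genes and 6 positive and 8 negative control probes; the instrument and software that made them are not stated in the labels. Per the labels' protocols, RNA came from formalin-fixed tissue, which fragments it. Of the 770 names, 754 were current symbols in the RefSeq gene table of GRCm38.p6, 8 were synonyms and 8 matched nothing. The counts were fitted with edgeR 4.0.16 in R 4.3.3: TMM scaling, a mean count of 20 or more per gene, control probes left out, and one quasi-likelihood fit of all 12 samples with a mean per group (8 residual degrees of freedom, 12.4 after moderation, common coefficient of biological variation 28.3%). Tests of the 7 comparisons were two-sided, and Benjamini-Hochberg adjusted p-values were held to 0.05. Every adjusted p comes from this test unless another tool is named. SEs were taken from the log2 fold change and its F value. Background was not subtracted, which understates changes of genes near it. Counting error is small at these depths, so the number of samples limits the precision.

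Alternatives were DESeq2 1.42.0, limma 3.58.1 on background-subtracted values, housekeeping or positive control factors, other filters, a block for the replicate number, a covariate for the sample code or fits within a code, the compared groups alone, and leaving out samples. The test was checked on simulated data for dICB against isotype over 635 genes: 68.5% of 92 changes of 1 log2 unit and 100% of 108 changes of 2 log2 units were recovered, with 7 false calls. The simulation changed 200 genes and held no library that stands apart, whereas 0 genes passed in the measured comparison. Its recovery is therefore no estimate of the power for these data or for smaller changes. Named genes were all members, all measured genes of the other class I list, the main regulators, the genes of smallest p from the other lists, and the 5 genes most like the members or Psmd7. The values of 1 gene under this rule are not reported here. The members and lists were chosen with earlier results of these data known.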

Additional observations from a re-analysis of the deposited data

Results flagged for a closer look

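In replicate 2 of dICB with Dexa 10 mg, 3 members stood far from the other 8 dICB-treated samples by Dixon's test, past its 95% critical value for 9 samples. H2-T23 was at 5739 normalised counts, where the nearest sample was at 4378, a gap of 0.588 of the range. Psmb9 was at 1901, with the nearest sample at 979 and a gap of 0.79 of the range. Psmb10 was at 818.4, with the nearest at 468.3 and a gap of 0.735. Chance marks about 1 in 20 such groups, the 10 members were tested in 1 group each, and the 3 values come from the same library, so they are not independent. The library held the highest or lowest value at 34.8% of the 635 tested genes. The other 7 members had no such sample.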

How the results depend on the processing

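Directions are called turned where the sign changed for a value larger than its SE. H2-K1 was higher in all 23 alternatives for Dexa 200 mg against isotype (0.77 to 1.43, called in 17) and Psmd7 lower in all 23 (-0.99 to -0.22, called in 17). The 17 include every fit that left out a dICB or 10 mg sample, which this comparison does not set against each other. Of the fits that left out an isotype or 200 mg sample, H2-K1 was called only without isotype replicate 1. Psmd7 was called only without isotype replicate 1 or without 200 mg replicate 1. Over all dICB-treated tumours H2-K1 was called in 10 of 21 alternatives and Psmd7 in 13 of 21. For all dICB-treated against isotype, 48 genes passed (25 higher, 23 lower): 83 (82 higher, 1 lower) with housekeeping factors, 25 (all higher) with positive control factors, 28 with no filter, 28 with the replicate block, 0 with the code as covariate, and 0 to 63 leaving out 1 sample; the members called were 5, 0, 1, 1, 0 and 0 to 2. For Dexa 200 mg against isotype, 84 genes passed (39 higher, 45 lower): 166 (161 higher, 5 lower) with housekeeping factors, 57 (55 higher, 2 lower) with positive control factors, 29 with the code as covariate, 148 within ICI7, 169 without both libraries that stand apart, 181 with the compared groups alone, and 0 to 136 leaving out 1 sample; the members were 5 with housekeeping factors, 1 with positive control factors, 1 with the code and 0 to 3 leaving out 1 sample. For dICB against isotype, 0 genes passed by edgeR (127 at an unadjusted p under 0.05): 45 with housekeeping factors, 4 with positive control factors, 2 with no filter, 1 with the replicate block, 6 without both libraries, 24 by DESeq2 with 1 member, 2 by limma, and 0 to 42 genes and 0 to 1 members leaving out 1 sample. Other counts moved from 0 to 4 (Dexa 10 mg against isotype, DESeq2), 7 within ICI7 and 2 without both libraries (Dexa 200 mg against 10 mg), 1 with the replicate block, 3 by DESeq2 and 0 to 8 leaving out 1 sample (Dexa 200 mg against dICB), and 0 to 1 leaving out 1 sample (Dexa 10 mg against dICB). Same-numbered samples did not deviate together more than others (median r = -0.0285 over 18 pairs, against 0.0166 over 36 other pairs). These correlations were given no test and cannot exclude that the number marks a shared block. The replicate block changed no other count by over 1.5 times; it ended the H2-K1 call over all dICB-treated tumours (0.75, adjusted p = 0.0561). Housekeeping factors raised the median of all genes in dICB against isotype to 0.46 and in all dICB-treated to 0.42, and positive control factors to 0.15 and 0.25.

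Some member differences turned, none of them past the threshold. Psmd7 in Dexa 10 mg against isotype was 0.039 with housekeeping and 0.052 with positive control factors. With the code as covariate, dICB against isotype was -0.0016 for H2-T23 and -0.0047 for Tap1, and Dexa 10 mg against isotype was -0.015 for Psmb9, which was -0.20 within ICI7, -0.18 without both libraries and -0.20 to 0.57 leaving out 1 sample. H2-K1 in Dexa 200 mg against 10 mg was -0.13 within ICI10. Without both libraries, Dexa 10 mg against dICB was -0.071 for H2-T23, -0.073 for Psmb9 and -0.10 for Psmb10, and Dexa 200 mg against 10 mg was 0.025 for Psmb10. Leaving out 1 sample gave -0.071 to 0.38, -0.053 to 0.72, -0.018 to 0.71 and -0.705 to 0.021 for these. The causes were not tested. Depth limits genes near background, not the members.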
